A study of Caenorhabditis elegans with 8 samples.

Results

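The fatty acid desaturases fat-1 to fat-7 of Caenorhabditis elegans were described across 8 arrays of fasting and fed adults. They were chosen by name, as the probe sets (groups of short probes read together as 1 value) whose annotation gives a single gene symbol among the 7. Each gene had 1 such probe set, which makes 7 of 17118 genes named on the array (22625 probe sets), and 7 of 7 passed the filter on dim probe sets. The groups were the mutants daf-16(mu86), drsh-1(ok369) and ain-1(tm3681), and wild type N2, each without food (fasting) and with it (fed), with 1 array a group and no replicates. Every group was grown at 20 °C and then kept on plates with FUDR, a drug that blocks the production of progeny. On day 2 the animals were moved to FUDR plates without or with UV-killed Escherichia coli OP50, and total RNA of day 4 adults was read by array. DRSH-1 is the nuclear nuclease Drosha and AIN-1 a partner of the microRNA-loaded Argonautes, while DAF-16 is the FOXO factor that insulin signalling holds back. The labels do not give how many animals an array pooled.

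Fatty acid desaturases put double bonds into the acyl chains of membrane and storage lipids, and the worm makes its polyunsaturated fatty acids with its own set of them. FAT-5 acts on palmitic acid, and FAT-6 and FAT-7, a close pair with overlapping function, turn stearic acid into oleic acid. FAT-2 turns oleic into linoleic acid, FAT-1 makes the omega-3 forms, and the front-end desaturases FAT-3 and FAT-4 act on longer, already unsaturated chains on the way to arachidonic and eicosapentaenoic acid. The genes fat-5, fat-6 and fat-7 are active mainly in the intestine, the worm's main fat store, and fat-7 is a known target of the nuclear receptor NHR-49, of SBP-1, the worm's SREBP, and of the Mediator subunit MDT-15. Lower fat-7 expression without food is established in the worm.

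Array medians lay between 35.3 and 37.8 intensity units, so overall levels were close. One of the drsh-1 probe sets read 17.1 fasting and 13.96 fed in the strain labelled drsh-1, against 185 fasting and 183 fed in wild type. The other one went the opposite way, at 357 fasting and 397 fed in that strain, against 68.8 and 68.7 in wild type, and where either lies relative to the deletion is not given. A daf-16 probe set read 8.98 fasting and 9.27 fed in the daf-16 strain, whereas wild type had 69.5 and 76.4. The other 3 daf-16 probe sets kept signal in that strain, at 106 to 224 fasting and 128 to 311 fed, against 286 to 378 and 266 to 415 in wild type. Without food the 3 ain-1 probe sets were close in ain-1 and wild type, at 202, 229 and 106 against 203, 237 and 109. With food they were lower in ain-1, at 99.6, 123 and 56.1 against 132, 171 and 63.8. Fed daf-16 was under fed wild type too, at 92.1, 152 and 62.6, so these probe sets do not mark the ain-1 strain. The sources do not place the daf-16 and ain-1 probes within or outside the deleted parts. The fasting daf-16 array stood apart on some of its control probe sets. Its ratio of 3-prime to 5-prime signal was 3.40 for catalase, against 1.47 to 1.79 on the other 7 arrays, and 7.61 for ubiquitin, against 6.10 to 6.74. For actin it was 2.11, against 1.54 to 2.06, and for Gapdh 1.197, against 0.859 to 1.193, both close to the highest other array. A spike-in control, the 3-prime probe set of DapX, read 178 there, against 70.1 to 91.8 on the other arrays.

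Of the 7 desaturase genes only fat-7 passed the test for a change with fasting, and it fell. Its intensity without food was 25.2 in drsh-1, 34.0 in ain-1, 38.7 in daf-16 and 126 in wild type. With food it was 49.1 in drsh-1, 311 in ain-1, 625 in daf-16 and 563 in wild type. Each strain was lower without food, but the groups overlapped, because fed drsh-1 animals stood below fasting wild-type animals. In a limma model with strain and food as additive terms, fitted to log2(intensity + 16), the mean fasting change over the 4 strains was −2.24 ± 0.42 (SE), which is 4.71-fold lower (Benjamini-Hochberg adjusted p = 0.0445). The added 16 understates changes of dim values such as these. Over all 15783 probe sets tested, 2.88% were called lower and 0.431% higher in this comparison, and 0.513% had a lower change than fat-7. The p-values measure only the spread of the 8 arrays around the additive model, in which the 4 strains stand in for replicates.

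The fat-7 call lay close to the threshold and depended on single strains. It was lost without both arrays of wild type (limma, adjusted p = 0.174), of ain-1 (0.201) or of daf-16 (0.159). The fall remained between −1.80 and −2.31. Calls over all probe sets fell too, to 3 higher and 94 to 112 lower, against 68 and 455 with all arrays. Without both drsh-1 arrays the fall was −2.76 (adjusted p = 0.00252), with 2361 probe sets called higher and 1415 lower. Leaving out either array of a strain alone gave the same change, since the other array then holds no information on food. Summed intestinal markers were lower in fasting too, at 1212 without food against 2025 with it in drsh-1, 1130 against 2620 in ain-1, 2084 against 3026 in daf-16 and 1793 against 3400 in wild type. Of 9 such markers 4 were called lower and 0 higher, as were 3 of 5 for body wall muscle and 1 of 7 for hypodermis, while 0 of 6 for the germline passed. The germline sum was still lower without food in each strain. Median changes were −0.67 for intestine, −0.77 for body wall muscle, −0.25 for hypodermis and −0.35 for the germline. For neurons the median was 0.12, with 0 of 6 called. In RNA from whole animals fewer cells of a type and less RNA per cell cannot be told apart, and the part of these tissues in the fat-7 change was not tested.

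The partner gene fat-6, which serves the same step to oleic acid, did not pass. Its fasting and fed intensities were 957 and 1060 (drsh-1), 1263 and 1925 (ain-1), 1305 and 2279 (daf-16), and 1913 and 2165 (wild type). Each strain was lower without food, but the 2 sets of values overlapped. The fitted change was −0.43 ± 0.13 (limma, adjusted p = 0.0976), with a 95% interval of −0.75 to −0.11. Without both drsh-1 arrays it was −0.53 ± 0.13 and passed (adjusted p = 0.0372). In that fit 1415 of the 15783 probe sets were called lower and 2361 higher, against 455 and 68 with all arrays. The probe set of fat-6 carries the name ending that the manufacturer uses for probes shared between related transcripts, so some fat-7 signal in it is possible, and its part was not tested.

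The third gene for a saturated substrate, fat-5, went different ways in different strains. Its fasting and fed intensities were 361 and 365 (drsh-1), 423 and 559 (ain-1), 148 and 218 (daf-16), and 762 and 530 (wild type). Wild type alone was higher without food, drsh-1 was level, and the pairs of ain-1 and daf-16 were lower. The mean change over the strains was −0.10 ± 0.18 (limma, adjusted p = 0.744) with an interval of −0.53 to 0.33.

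Among the genes that act after oleic acid, fat-3 had the only value above 0. FAT-3 is the front-end desaturase at the entry to the long polyunsaturated acids. Its fasting and fed intensities were 1290 and 1408 (drsh-1), 2426 and 1951 (ain-1), 1844 and 1439 (daf-16), and 3079 and 1470 (wild type). The fasting values of ain-1, daf-16 and wild type were above their fed values, with drsh-1 slightly the other way. The fitted change was 0.40 ± 0.18 (limma, adjusted p = 0.189). It was 0.57 ± 0.16 and passed without both drsh-1 arrays (adjusted p = 0.0492), but only 0.18 ± 0.14 without both wild-type arrays (adjusted p = 0.5). Over all 15783 probe sets, 2361 were called higher and 1415 lower without both drsh-1 arrays. Without both wild-type arrays these were 3 and 105, and with all arrays 68 and 455.

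The remaining 3 genes did not pass either. The fasting and fed values of fat-4, the last desaturase before arachidonic acid, were 1632 and 1797 (drsh-1), 1945 and 2628 (ain-1), 2230 and 2467 (daf-16), and 2045 and 2530 (wild type). All 4 strains were thus lower without food, by a fitted −0.25 ± 0.09 that did not pass (limma, adjusted p = 0.115). For fat-2, the oleate desaturase, they were 5253 and 5056 (drsh-1), 3955 and 5086 (ain-1), 2454 and 4151 (daf-16), and 4136 and 3807 (wild type). The low fasting daf-16 value came from the array whose controls stood apart, and its part in that value was not tested. For fat-1 all 8 arrays lay between 1653 and 2276, a 1.38-fold range. The changes were −0.24 ± 0.15 for fat-2 (limma, adjusted p = 0.329) and −0.08 ± 0.11 for fat-1 (0.65), with intervals of −0.59 to 0.12 and −0.33 to 0.17.

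**Figure D1:**
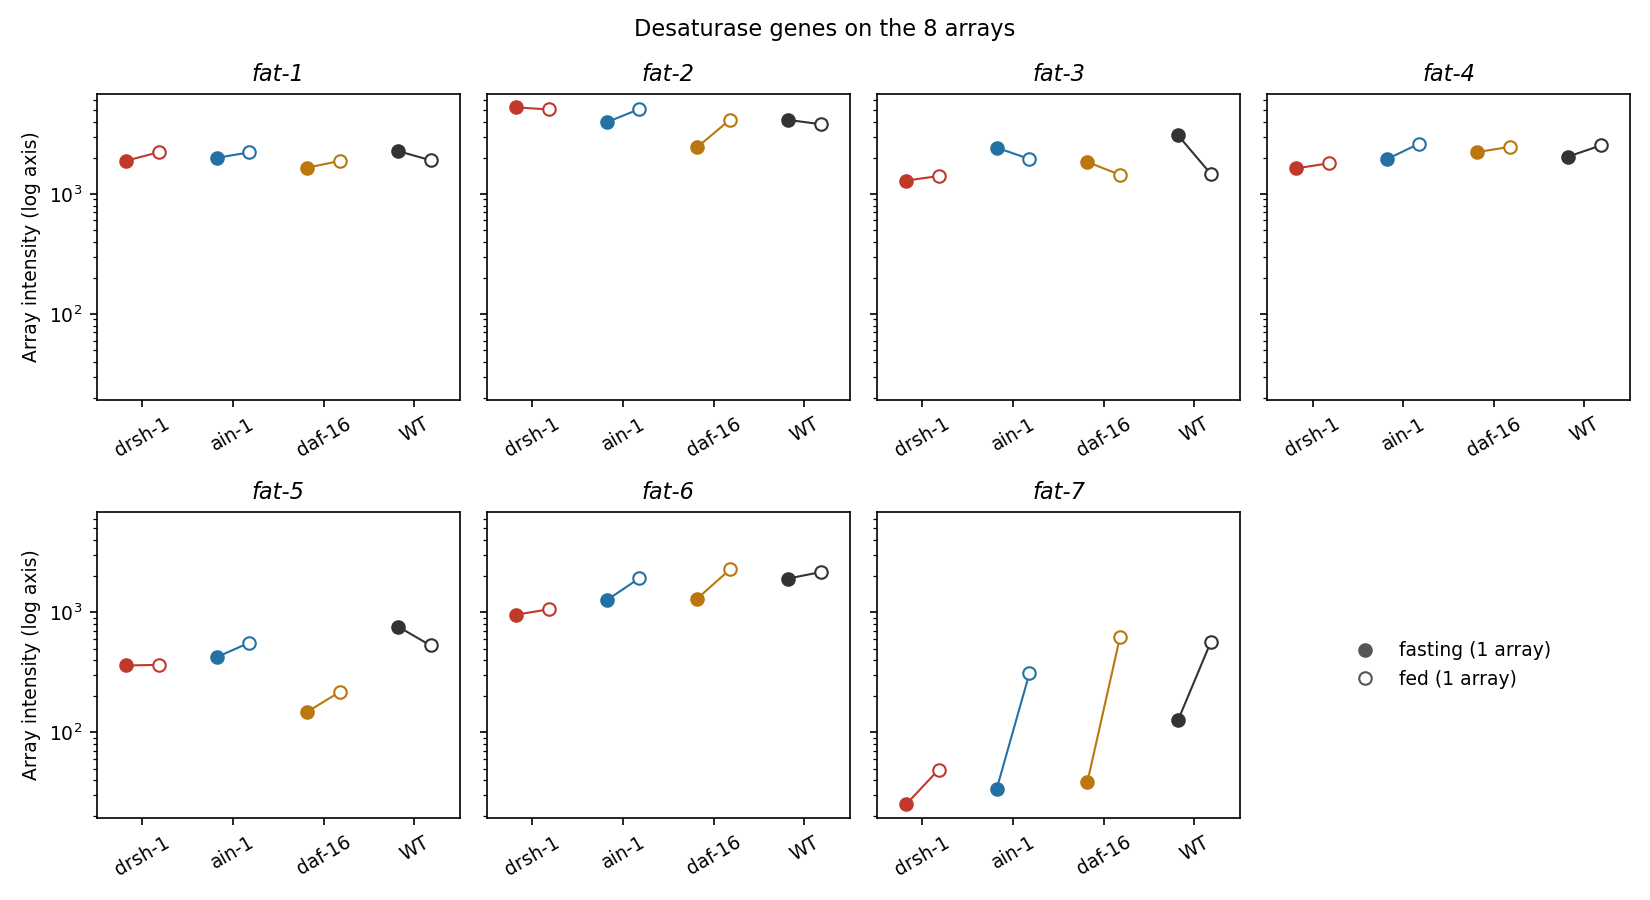
Array intensity (log axis) of fat-1 to fat-7 in drsh-1, ain-1, daf-16 and wild type (WT), 1 panel a gene and 1 point an array, with fasting filled and fed open and a line joining the arrays of a strain. The 4 fasting values of fat-7 lie between 25.2 and 126, and fed drsh-1 (49.1) is the only fed value in that range.

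Within single strains, a change of at least 2-fold on the log2(intensity + 16) scale was reached by fat-7 in 3 strains and by fat-3 in 1. These are descriptions of 1 pair of arrays each, with no test. The fat-7 change was −2.71 in ain-1, −3.55 in daf-16 and −2.02 in wild type, but −0.66 in drsh-1, whose fed value was already low. The daf-16 change used the fasting array whose controls stood apart, and the part of that array was not tested. Over all tested probe sets, a fall of at least 2-fold was seen for 3.49% in ain-1, 5.01% in daf-16, 3.36% in wild type and 1.04% in drsh-1. The fat-3 change was 1.06 in wild type, against −0.12 in drsh-1, 0.31 in ain-1 and 0.35 in daf-16. A value at least 2-fold higher was seen for 2.58% of probe sets in wild type, 0.0317% in drsh-1, 2.72% in ain-1 and 7.17% in daf-16.

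**Figure D2:**
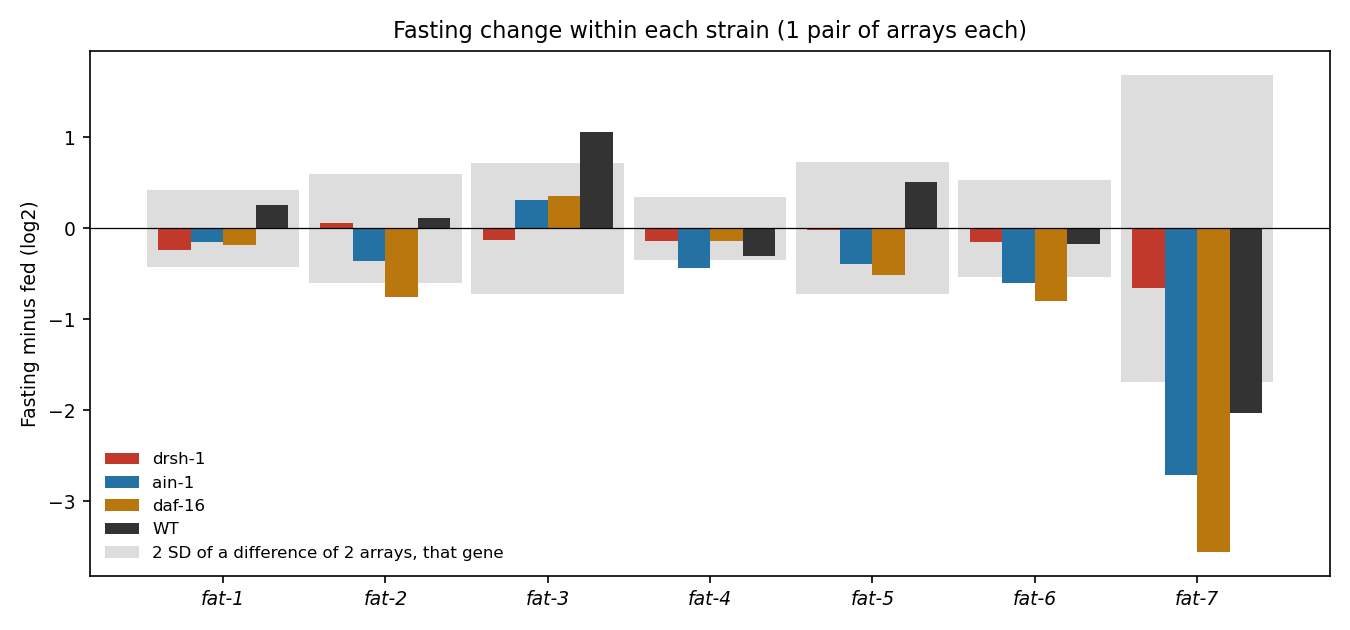
Fasting minus fed value on the log2(intensity + 16) scale for each gene (x axis) in drsh-1, ain-1, daf-16 and wild type, 1 pair of arrays a bar. Grey boxes are 2 SD of a difference of 2 arrays for that gene (0.73 either way for fat-5 and 1.69 for fat-7). The fat-7 bars of ain-1, daf-16 and wild type pass their box. So do fat-3 in wild type, fat-2 in daf-16, fat-4 in ain-1, and fat-6 in ain-1 and daf-16. All fat-1 and fat-5 bars stay inside.

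Whether 1 strain answered fasting unlike the other 3 was tested with limma on the same model with a separate response for that strain, which leaves 2 residual degrees of freedom. The fat-7 change in drsh-1 was 2.10 ± 0.56 above the mean of the other strains, which did not pass (adjusted p = 0.241, unadjusted p = 0.00986). For fat-3 in wild type the excess was 0.88 ± 0.28 (adjusted p = 1, unadjusted p = 0.0207), and for fat-5 in wild type 0.82 ± 0.33 (adjusted p = 1, unadjusted p = 0.0487). The fat-2 change in daf-16 was 0.69 ± 0.24 below the others, which the table gives as −0.69 (adjusted p = 0.317, unadjusted p = 0.0312). By limma 0 of the 15783 probe sets passed for any strain. Unadjusted p-values under 0.05 numbered 2154 for drsh-1 (13.6%), 172 for ain-1 (1.09%), 2291 for daf-16 (14.5%) and 160 for wild type (1.01%).

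Loss of Drosha went with lower values of both genes for oleic acid synthesis, with and without food. Some fat-7 signal in the fat-6 probe set is possible, so the 2 readings may not be separate, which was not tested. All mutant comparisons share the wild-type arrays. For fat-7, drsh-1 had 25.2 fasting and 49.1 fed, against 126 and 563 in wild type. For fat-6 it had 957 and 1060, against 1913 and 2165. On both foods the mutant was the lower one, and for fat-6 its fed and fasting values both lay under both wild-type values. In the fit with food as a block fat-6 fell by 1.003 ± 0.19 (2.004-fold lower, limma adjusted p = 0.0203) and fat-7 dropped by 2.47 ± 0.60 (5.55-fold lower, adjusted p = 0.0446). These were 2 of the 7 genes, with 0 called higher, where 3.74% of all probe sets were called lower and 7.98% higher. With food alone, fat-7 was 8.90-fold lower in drsh-1, and 0.0887% of probe sets had a lower difference in that pair of arrays.

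In single pairs of arrays, with no test, 0 of the 7 genes were at least 2-fold higher in a mutant than in wild type. In fed drsh-1 animals fat-6 and fat-7 were at least 2-fold lower (3.35% of all probe sets were, and 4.59% were higher by that much). In fasting drsh-1 animals fat-3, fat-5 and fat-7 were (3.78% lower and 3.8% higher), with fat-6 just short of it at 1.98-fold. In ain-1 it was fat-7 without food (0.697% lower and 0.393% higher) and 0 genes with food (0.437% and 0.558%). In daf-16 it was fat-5 and fat-7 without food (1.43% lower and 1.85% higher) and fat-5 with food (0.995% and 0.19%).

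Both calls rested on few arrays. Leaving out a wild-type, an ain-1 or the fed drsh-1 array also lowered the number of calls over all probe sets. For fat-6 the adjusted p was 0.194 without the fasting and 0.0844 without the fed wild-type array, and 0.0713 without the fed drsh-1 array. For fat-7 these were 0.252, 0.19 and 0.109, and the value without the fed drsh-1 array was −1.42, against −3.52 without the fasting one. Without the fasting or the fed ain-1 array, fat-7 had adjusted p = 0.0812 and 0.0788. Intestinal markers summed to 1212 fasting and 2025 fed in drsh-1, against 1793 and 3400 in wild type, with 1 of 9 called lower in drsh-1. Without food the single markers went both ways. Fasting drsh-1 was lower than fasting wild type for cpr-1 (143 against 841), ges-1, vha-6, pept-1 and elt-7. It was higher for act-5 (382 against 116), ifc-2 (137 against 96.4), ifb-2 and elt-2. The part of the intestine in the fat-6 and fat-7 results was not tested.

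The other genes did not pass in drsh-1. The values were −0.78 ± 0.26 for fat-5 (limma, adjusted p = 0.1), −0.65 ± 0.25 for fat-3 (0.149), −0.41 ± 0.12 for fat-4 (0.0823), 0.38 ± 0.21 for fat-2 (0.293) and −0.02 ± 0.15 for fat-1 (0.934). The fat-3 value came from the fasting pair (1290 in drsh-1 against 3079 in wild type), since the fed pair was close (1408 against 1470). For fat-2, the 2 drsh-1 arrays were among the 3 highest of the 8. The interval for fat-1 was −0.38 to 0.33, so a change of that size in either direction could have been missed.

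Among the 7 genes, fat-5, whose enzyme makes palmitoleic acid, had the largest fitted difference of daf-16 from wild type, but it did not pass. The daf-16 strain read 148 fasting and 218 fed, whereas wild type had 762 and 530, and the 2 daf-16 arrays were the lowest of the 8. The fitted difference was −1.73 ± 0.26, 3.32-fold lower (limma, adjusted p = 0.124, unadjusted p = 0.000315), and only 0.146% of probe sets were lower. Limma called 0 of 15783 probe sets in this comparison (0% either way), with 1385 (8.78%) at an unadjusted p under 0.05. Leaving out the fasting daf-16 array gave −1.46, and the fed pair alone was −1.22, with 0.995% of probe sets at least 2-fold lower in that pair. Leaving out the fasting wild-type array gave −1.33.

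The other desaturase genes did not pass in daf-16 either. With food, fat-6 and fat-7 of daf-16 were at 2279 and 625, against 2165 and 563 in wild type, so neither was lower there. Without food they were at 1305 and 38.7, against 1913 and 126, on the daf-16 array whose controls stood apart. The fitted differences were −0.24 ± 0.19 for fat-6 (limma, adjusted p = 0.745) and −0.62 ± 0.60 for fat-7 (0.79), and the fat-7 interval of −2.04 to 0.81 leaves its direction undetermined. Values for fat-3, fat-2, fat-1 and fat-4 were −0.38, −0.31, −0.24 and 0.04, with adjusted p from 0.685 to 0.936.

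In ain-1 the desaturase genes did not differ from wild type by the test, with 0 of 7 called beside backgrounds of 0.0444% lower and 0.00634% higher. By limma 923 probe sets (5.85%) had an unadjusted p under 0.05 there. For fat-7, ain-1 had 34.0 fasting and 311 fed, against 126 and 563 in wild type, a fitted −1.17 ± 0.60 (limma, adjusted p = 0.895). Although the test was not passed, ain-1 was the lower one on both foods, and only 0.266% of probe sets had a lower value. For fat-6 the difference was −0.38 ± 0.19 (0.886) and for fat-5 −0.38 ± 0.26 (0.929), while fat-1 to fat-4 lay between −0.01 and 0.18. The intervals of those 4 genes ran from −0.58 at the lowest to 0.68 at the highest.

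**Figure D3:**
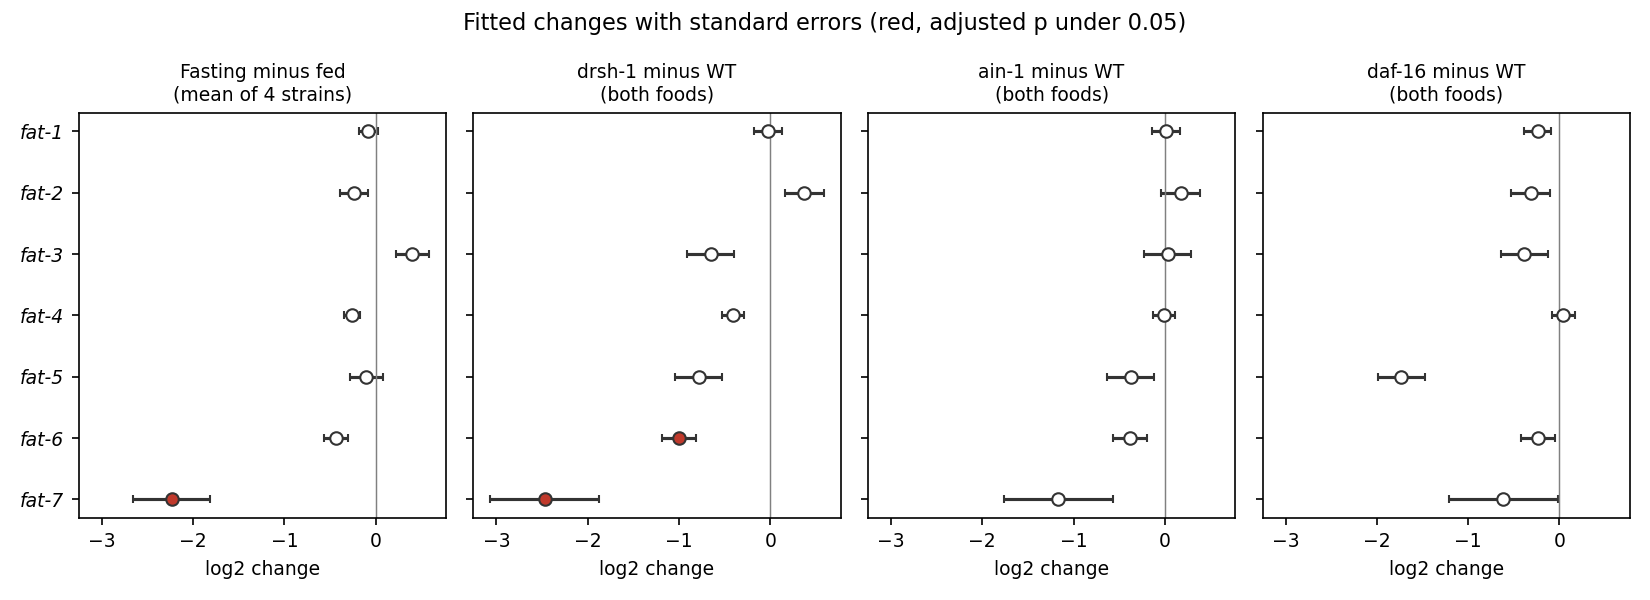
Fitted log2 changes of the 7 genes with standard errors, for fasting minus fed over the 4 strains and for drsh-1, ain-1 and daf-16 minus wild type over both foods. The red points, adjusted p under 0.05, are fat-7 in fasting (−2.24) and fat-6 (−1.003) and fat-7 (−2.47) in drsh-1.

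The 7 genes differed widely in how far they moved over the 8 arrays. The highest value was 24.8 times the lowest for fat-7, 5.13 times for fat-5, 2.39 for fat-3, 2.38 for fat-6, 2.14 for fat-2, 1.61 for fat-4 and 1.38 for fat-1. The SD of fat-7 on the log2 scale was above that of 99.5% of tested probe sets, and that of fat-1 above 29.8%. When the 8 groups were put in order of level for each gene, neighbours in that order rarely differed by more than 2 SD of a difference of arrays around the model. The exceptions were fasting daf-16 below fed wild type for fat-2 (gap 0.63 against a limit of 0.60) and fasting daf-16 below fasting wild type for fat-6 (0.55 against 0.53). For fat-7 no neighbours were that far apart (limit 1.69). Both exceptions used the fasting daf-16 array, whose controls stood apart, and its part in them was not tested.

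The genes fat-4, fat-6 and fat-7 had like profiles over the arrays, as a description of 8 arrays that share strains and foods. Pearson's correlation of the log2 values was 0.93 between fat-6 and fat-7, 0.87 between fat-4 and fat-6, and 0.84 between fat-4 and fat-7. Between fat-1 and fat-5 it was 0.80. The genes fat-1 and fat-2 follow each other among the protein-coding genes of the RefSeq annotation (WBcel235) and had a correlation of 0.70 (Spearman 0.29). The neighbours fat-3 and fat-4 had one of 0.09, and the highest value of fat-3 with any of the others was 0.45, with fat-5.

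For each desaturase the 3 most similar profiles among 11975 genes were listed, by the same correlation. Those of fat-7 were memi-3, which acts at the exit from oocyte meiosis (0.99), the glutathione S-transferase gene gst-27 (0.99) and the collagen gene col-77 (0.99). For gst-27 the fasting and fed intensities were 19.5 and 35.4 (drsh-1), 28.5 and 104 (ain-1), 31.1 and 148 (daf-16), and 48.8 and 123 (wild type), in the same order of groups as fat-7 (Spearman 1). Those of fat-6 were Y110A2AR.1 (0.99), the centromeric histone gene cpar-1 (0.99) and C04B4.2 (0.98). For fat-4 they were dct-11 (0.99), the glucuronosyltransferase gene ugt-31 (0.98) and the sugar transporter gene swt-7 (0.98). For fat-5 they were the histone deacetylase gene hda-5 (0.98), clc-24 (0.96) and F38B6.4 (0.95). For clc-24 daf-16 was the lowest strain, at 18.3 fasting and 20.6 fed against 93.3 and 83.8 in wild type. All genes listed by likeness, here and below, were picked by their profile on these arrays. That they share an order of groups with a desaturase is thus no separate observation.

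The gene nearest to fat-3 was ZK1320.9 (0.97), followed by hacd-1 (0.95), an enzyme of fatty acid oxidation under NHR-49, and Y75B8A.31 (0.95). For hacd-1 the fasting and fed values were 172 and 167 (drsh-1), 1008 and 237 (ain-1), 460 and 144 (daf-16), and 1501 and 181 (wild type). Another NHR-49 target, the acyl-CoA synthetase gene acs-2, had 211 and 244 in drsh-1, against 1878 and 53.9 in wild type, so in drsh-1 both genes had close values without and with food. It was picked after its values were seen. Those of fat-2 were F35E12.2 (0.97), the F-box gene fbxa-192 (0.97) and the syntrophin gene stn-1 (0.96), and those of fat-1 were C45B2.6 (0.93), T21D12.12 (0.89) and the cytochrome P450 gene cyp-25A6 (0.88).

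Among genes around the desaturases in lipid synthesis, 3 were called with fasting, each of them lower, in a comparison where 2.88% of all probe sets were called lower and 0.431% higher. In the desaturase set 1 of 7 genes fell with a median change of −0.24, against a median of 0.01 over all probe sets tested. Of 6 genes of fatty acid synthesis 1 fell (median −0.36), the acyl-CoA synthetase gene acs-1 at −2.30 ± 0.35 (limma, adjusted p = 0.0219). Of 10 elongation genes tested 1 fell (median −0.04), the elongase gene elo-5 at −1.44 ± 0.21 (0.0207). Of 21 genes of glycerolipid synthesis and storage 1 fell (median −0.08), the diacylglycerol acyltransferase gene dgat-2 at −1.39 ± 0.22 (0.0256). In wild type, acs-1 had 186 fasting and 1196 fed, elo-5 787 and 1471, and dgat-2 162 and 592. Each of these 3 calls was lost without both arrays of wild type, of ain-1 or of daf-16. The values were then between −2.02 and −2.21 for acs-1, −1.38 and −1.62 for elo-5, and −1.23 and −1.40 for dgat-2. Calls over all probe sets fell in those fits too, to 3 higher and 94 to 112 lower, against 68 and 455.

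The lists of regulators and partners held 0 calls with fasting by limma. Of the 14 regulators tested (median 0.05), pcyt-1, a gene of phosphatidylcholine synthesis, had the largest value, 1.20 ± 0.27 (adjusted p = 0.0634), with 864 fasting and 211 fed in daf-16 and 493 and 173 in wild type. The methyltransferase gene pmt-2, of the same route, had −0.54 ± 0.14 (0.0756). The cytochrome b5 genes cytb-5.1 and cytb-5.2, of a family that passes electrons to desaturases, had 0.66 ± 0.26 (0.145) and 0.53 ± 0.16 (0.0919), in a list of 6 with a median of −0.08. Among 6 genes of membrane fluidity sensing (median 0.03) fld-1 had 0.42 ± 0.15 (0.126) and acs-13 −0.41 ± 0.17 (0.157). Among 7 users of polyunsaturated acids (median −0.16) the epoxide hydrolase gene ceeh-1 had −0.61 ± 0.13 (0.0577) and the fatty acid amide hydrolase gene faah-1 −0.60 ± 0.18 (0.0934).

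In drsh-1 the lists held 4 calls higher and 2 lower, where 7.98% of all probe sets were called higher and 3.74% lower. The median of the 7 desaturase genes was −0.65, against −0.002 over all probe sets. The fatty acid synthase gene fasn-1 rose by 1.23 ± 0.20 (limma, adjusted p = 0.0142), with 1645 fasting and 1601 fed in drsh-1 against 570 and 820 in wild type, as the 1 call among 6 synthesis genes (median −0.03). In the elongation list elo-5 fell by 1.94 ± 0.30 (0.0115), to 118 fasting and 589 fed in drsh-1, and it was the 1 call of 10 (median −0.33). Among regulators scp-1, the worm's SCAP, which escorts SBP-1, rose by 0.90 ± 0.18 (0.0235), as 1 call of 14 (median 0.37), with sbp-1, added here after its value was seen, at 0.59 ± 0.17 (0.0769). Of 21 glycerolipid genes 2 rose and 1 fell (median −0.08), with the acyltransferase genes acl-14 at 0.70 ± 0.13 (0.0208) and acl-1 at −0.95 ± 0.18 (0.0202). All 5 calls named here were lost without the fasting wild-type array, as were most calls over all probe sets. The values there were 1.16 for fasn-1, −1.57 for elo-5, 1.04 for scp-1, 0.77 for acl-14 and −0.89 for acl-1. The donors, fluidity genes and users of polyunsaturated acids had 0 calls by limma, and in ain-1 and daf-16 there were 0 calls in all 7 lists.

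**Figure D4:**
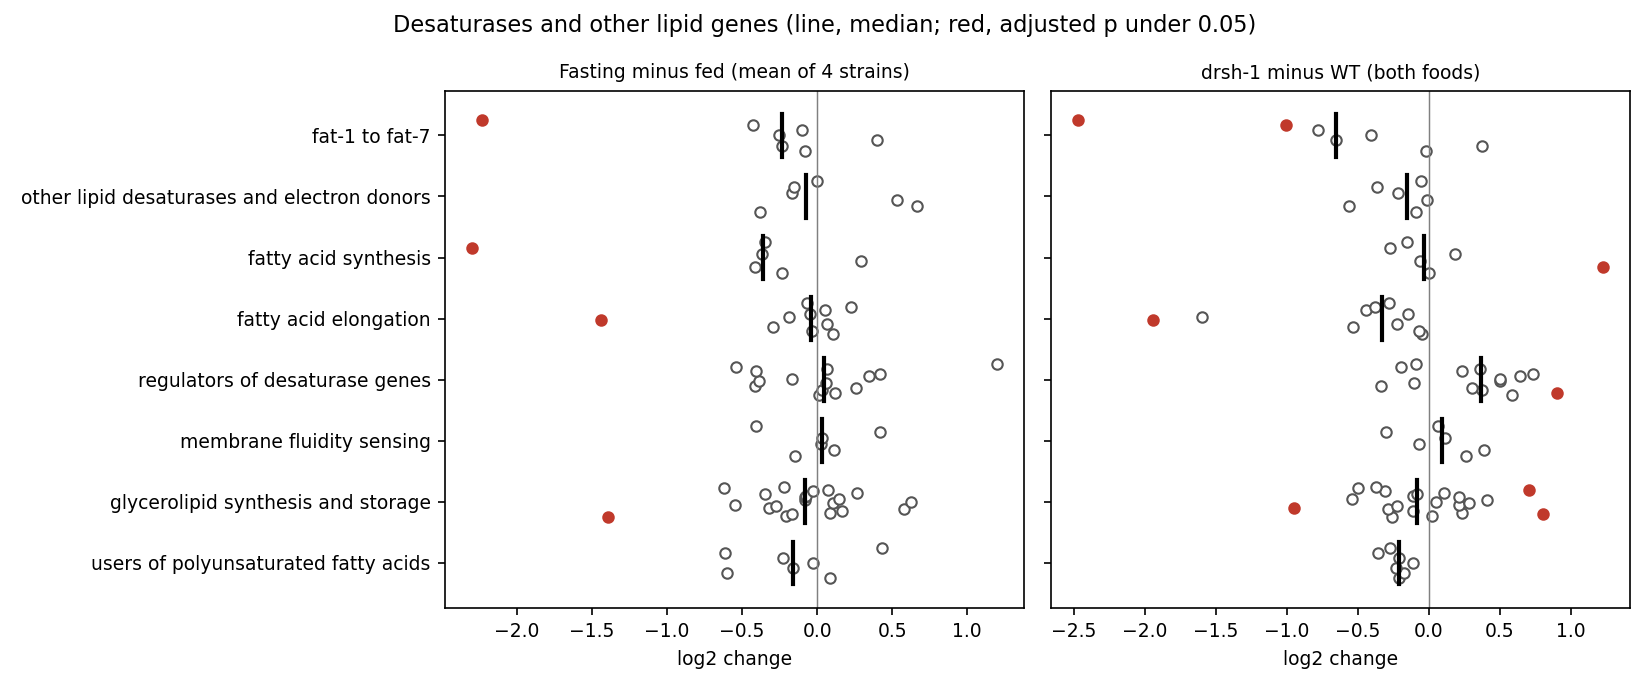
Fitted log2 changes of the desaturase genes and of 7 lists of lipid genes, 1 point a gene, for fasting minus fed over the 4 strains (left) and drsh-1 minus wild type over both foods (right). Black lines are list medians (−0.24 and −0.65 for the desaturases), and red points, adjusted p under 0.05, are all below 0 on the left and on both sides of 0 on the right.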

How the data were processed

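Per the labels' protocols, total RNA was labelled with biotin in a 3-prime IVT reaction and read on arrays. The authors deposited intensity values on a linear scale, in 1 table of 22625 probe sets. Their summary and normalization steps are not stated in the labels or the table. The 77 control probe sets and the 30% of the others with the lowest mean log2(intensity + 16), an intensity under about 15.7, were left out, which left 15783. The platform annotation gave 1 gene symbol to 20766 probe sets, several to 887 and none to 895, and 20701 of the first were updated to RefSeq names (WBcel235). A gene with several probe sets was read from the one with the highest mean. The additive models (3 residual degrees of freedom) used limma 3.58.1 (R 4.3.3) and its trended prior, and were run on simulated data. For these models the simulated arrays had independent noise and no strain-specific response to food. The simulation thus cannot show how the calls behave where strains respond differently. A call is a Benjamini-Hochberg adjusted p under 0.05 over all tested probe sets. With 1 array a group, the number of arrays limits precision. The genes, the lipid lists and the tests were chosen with earlier results of these data known. From each list were named up to 4 genes called in fasting (or the 2 largest) and up to 2 called in a mutant. Alternatives covered the filter, normalization, pseudocount, trend, array weights, model terms, single arrays, strain pairs and averaged probe sets.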

Additional observations from a re-analysis of the deposited data

Results flagged for a closer look

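The fasting change of fat-5 ran in opposite directions in 2 strains. It was −0.51 in daf-16 and 0.51 in wild type. Each is past 2 SD of a difference of 2 arrays for the median probe set (0.41 on the log2 scale), but within that of fat-5 itself (0.73). The difference between these 2 strains was not tested, since each change comes from 1 pair of arrays.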

How the results depend on the processing

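The fasting fit pairs the arrays of a strain through its strain term, and no replicate number could serve as a further block, with 1 array a group. Over 777 alternative values for the 7 genes, 755 kept their direction, but many of them could not have changed. The filter, the trend and the model terms leave a fitted change as it is. Leaving out an array of a strain outside a mutant comparison does so too. The count of kept directions is thus no measure of robustness. The count of desaturase genes called in fasting (1) was 0 with quantile normalization, with a pseudocount of 64, without the mean-variance trend and with food only in the model, and 4 with arrayWeights (fat-3, fat-4, fat-6 and fat-7). It ranged from 0 to 3 with arrays left out, and was 3 only without drsh-1 arrays. Over all probe sets, 2361 were called higher and 1415 lower without both drsh-1 arrays, against 68 and 455 with all arrays. The fat-7 fall was called in 9 of 22 alternatives, with values from −2.76 to −1.69. These alternatives are not all separate, since leaving out either array of a strain, or both, gives the same fasting change. The count in drsh-1 (2) was 1 with a pseudocount of 64 and without the trend, 0 with strain only in the model, and 0 to 2 with arrays left out. With arrayWeights the fat-7 response of drsh-1 passed (1 gene, 1.98, adjusted p = 0.0129). All probe sets called in fasting numbered 3680 higher and 2662 lower with arrayWeights, against 68 and 455. The cause of these shifts was not tested. Values that changed sign were near 0 or uncalled. With quantile normalization they were 0.10 for fat-1 in drsh-1 and 0.070 for fat-4 in ain-1, with arrayWeights 0.080 for the fat-4 response of wild type, and with a pseudocount of 64 −0.044 for the fat-7 response of wild type. With arrays left out, fat-5 in fasting ran from −0.30 to 0.036, and fat-1 in drsh-1 from −0.24 to 0.20. In ain-1, fat-1 ran from −0.21 to 0.24, fat-2 from −0.060 to 0.41, fat-3 from −0.41 to 0.47, fat-4 from −0.13 to 0.11 and fat-5 from −0.78 to 0.032. In daf-16, fat-2 ran from −0.66 to 0.033, fat-3 from −0.82 to 0.056, fat-4 from −0.030 to 0.12, fat-6 from −0.48 to 0.0080 and fat-7 from −1.50 to 0.26.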

Other observations

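The elongase genes elo-5 and elo-6 make the branched-chain fatty acids of the worm, beside the desaturase route, and were picked here after their values were seen. The fasting and fed intensities of elo-6 were 209 and 470 (drsh-1), 1289 and 963 (ain-1), 351 and 642 (daf-16), and 1293 and 748 (wild type). Thus ain-1 and wild type were higher without food while drsh-1 and daf-16 were lower. The mean fasting change was −0.19 ± 0.32 (limma, adjusted p = 0.724) and the difference of drsh-1 from wild type −1.60 ± 0.46 (0.0691). For elo-5 all 4 strains were lower without food.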
